A study of Saccharomyces cerevisiae with 12 samples.

Results

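The pentose phosphate pathway is described here through 10 genes that encode its enzymes in *S. cerevisiae*. These genes were chosen by their names as enzymes of the pathway, with earlier results of these data known. They are *ZWF1*, *SOL3*, *SOL4*, *GND1* and *GND2* of the oxidative branch, and *RKI1*, *RPE1*, *TKL1*, *TKL2* and *TAL1* of the non-oxidative branch. All 10 were measured, each by 1 probe set, among 5449 named genes and 5667 features in all. RNA was taken from *com2*Δ cells with SO2, *com2*Δ cells without it, BY4741 cells with SO2 and BY4741 cells without it, and hybridised to 12 Affymetrix Yeast Genome 2.0 arrays, 3 biological replicates per group. SO2 was given at 0.5 mM for 60 min at pH 3.5 to cells re-inoculated into fresh minimal medium, and control cells had the same medium without it. BY4741 is a haploid laboratory strain (MATa, his3-Δ1, leu2-Δ0, met15-Δ0, ura3-Δ0), and *com2*Δ is the same strain without *COM2*, the gene of a transcription factor related to Msn2 and Msn4. All 4 groups therefore carry the same auxotrophies, including the loss of *MET17* (also called *MET15*), and the medium held methionine, leucine, histidine and uracil. The arrays were compared to learn how cells respond to SO2 and which part of that response needs Com2. The paper cautions that many genes not activated in *com2*Δ cells may reflect the state of these more susceptible cells. Such genes would then not be specific targets of Com2, which was not tested here.

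The oxidative branch converts glucose 6-phosphate to ribulose 5-phosphate and reduces NADP+ to NADPH at its first and last steps, catalysed by the dehydrogenases that *ZWF1* and *GND1* or *GND2* encode. The non-oxidative branch interconverts pentose phosphates with glycolytic intermediates and yields ribose 5-phosphate for nucleotides. NADPH is the reductant of biosynthesis, of glutathione and thioredoxin, and of sulfite reductase, the enzyme that turns sulfite into sulfide, and yeast without *ZWF1* needs methionine to grow.

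Values are intensities on a linear scale as deposited, and they compare groups for 1 probe set but not 1 gene with another. A log2 fold change was fitted for each gene with limma over all 12 arrays, and its adjusted p comes from Benjamini-Hochberg adjustment over the 5667 features. A gene was called changed at 2-fold or more with p under 0.05 and a false discovery rate under 10%. Since each group has 3 arrays, a gene has the same standard error (SE) in each comparison of 2 groups. The comparisons share arrays, so their results are not independent of each other. In a bulk culture, less transcript per cell and fewer cells that make it cannot be told apart.

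Median intensities were 1673 to 1868. The 3 BY4741 arrays with SO2 had the highest medians, 1807 to 1868, against 1673 to 1750 on the other arrays. After median centring, the median log2 fold change over all features in BY4741 cells was -0.096. Pearson's r between replicates across probe sets was 0.974 to 0.995. The array of BY4741 control replicate 3 stood apart from its replicates (median absolute log2 difference 0.23 and 0.27, against 0.0954 between these), and replicate 2 of both SO2 groups and *com2*Δ control replicate 3 did so to a lesser degree. *COM2* itself was at 9.35 to 20.3 on the 6 *com2*Δ arrays, against 2368 to 3680 on the 6 BY4741 arrays, with no overlap. Of the genes deleted in both strains, *LEU2*, *MET17* and *URA3* gave 5.38 to 152.5 over the 12 arrays, and this upper value served as a rough level of background. *HIS3* gave 5517 to 20483 on the same arrays and was not used for this, since the allele his3-Δ1 keeps part of the gene.

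In BY4741 cells *ZWF1*, the gene of the entry step, rose with SO2, while most of the other pathway genes were lower. *ZWF1* rose 2.69-fold, and *SOL4*, *GND1*, *GND2*, *RKI1* and *TKL2* fell by factors between 2.10 and 12.8. Thus 6 of the 10 genes were called changed, 1 higher and 5 lower, where 18.8% of all features were called (10.5% higher and 8.36% lower). The median log2 fold change of the 10 genes was -0.87, against 0.00 over all features. Without the limit on fold change, at an adjusted p under 0.05, 2 were higher (*ZWF1* and *TKL1*) and 7 lower, where 30.0% and 29.6% of all features were. The 3 SO2 arrays lay all above the control arrays for 2 genes and all below for 7, and they overlapped for *RPE1* alone, where the arrays of 62.8% of all features did not overlap.

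In *com2*Δ cells the same treatment left *ZWF1* without a called change, and none of the 10 genes was called lower. *GND2* alone was called, 4.18-fold higher, where 5.88% of all features were called (3.14% higher and 2.74% lower). The median log2 fold change of the 10 genes was 0.26, against 0.01 over all features. Without the limit on fold change, *SOL3*, *GND1*, *GND2* and *TAL1* were higher and none of the 10 was lower, where 14.0% of all features were higher and 14.9% lower. The 3 SO2 arrays lay above the control arrays for these 4 genes and overlapped with them for the other 6, where 47.1% of all features had arrays that did not overlap.

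**Figure D1:**
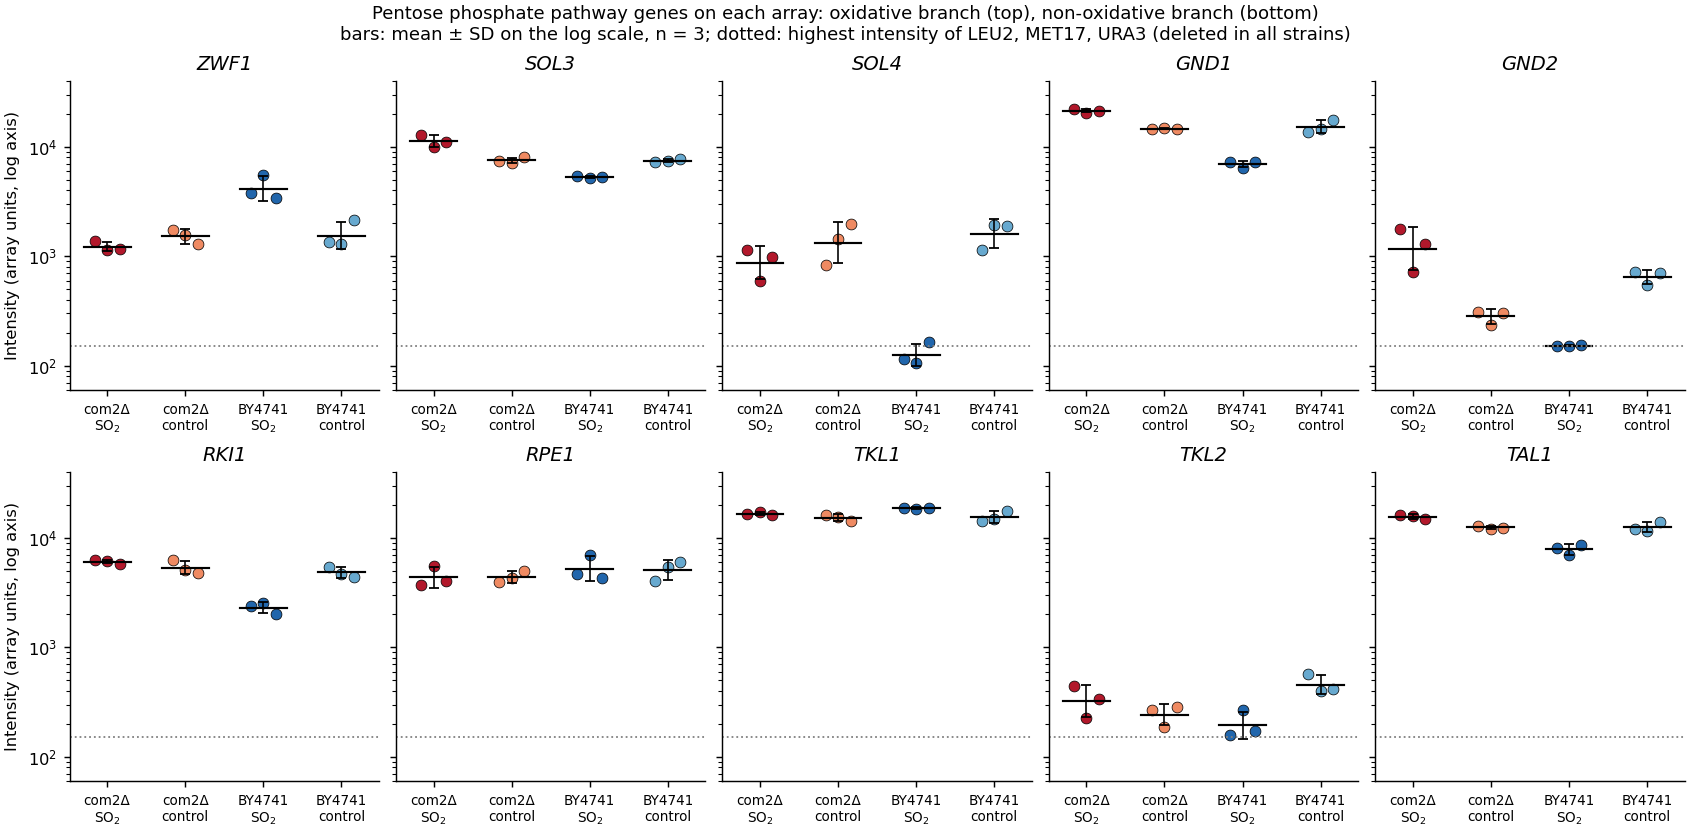
Intensity (log axis) of each pathway gene on each array, with the oxidative branch in the upper row and the non-oxidative branch in the lower row. Points are the 12 arrays in 4 groups, bars show mean and SD on the log scale (n = 3), and the dotted line marks 152.5, the highest intensity of *LEU2*, *MET17* and *URA3*. *ZWF1* is highest on the 3 BY4741 arrays with SO2, where *SOL4* and *GND2* lie at or near the dotted line and *TKL2* lies at 159 to 271.

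*ZWF1* (YNL241C) encodes glucose-6-phosphate dehydrogenase, which commits glucose 6-phosphate to the pathway and makes its first NADPH. In *com2*Δ cells it had 1380, 1146 and 1163 with SO2, against 1753, 1553 and 1283 without. In BY4741 cells it had 3790, 5535 and 3421 with SO2, against 1341, 1284 and 2137 without. All 3 BY4741 arrays with SO2 stood above every other array, and the remaining 3 groups overlapped. The log2 fold change was -0.31 in *com2*Δ cells (SE 0.22, adjusted p = 0.326, 95% interval -0.79 to 0.18) and 1.43 in BY4741 cells (adjusted p = 0.000201). The responses of the strains differed by -1.74 on the log2 scale, *com2*Δ minus BY4741 (SE 0.31, adjusted p = 0.0013). The highest control value, 2137, came from the BY4741 array that stood apart. Without that array the change in BY4741 was 1.66, and without BY4741 SO2 replicate 2 it was 1.22.

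The lactonase genes *SOL3* and *SOL4*, whose enzymes hydrolyse the product of Zwf1, differed in size of response: in BY4741 cells *SOL4* fell and *SOL3* was lower by less than 2-fold. *SOL3* (YHR163W) had 12831, 9962 and 11000 in *com2*Δ cells with SO2, against 7424, 7145 and 8003 without. In BY4741 cells *SOL3* had 5437, 5229 and 5330 with SO2, against 7245, 7378 and 7760 without. The treated arrays thus lay above the controls in *com2*Δ cells and below them in BY4741 cells, with log2 fold changes of 0.58 (SE 0.10, adjusted p = 0.00168) and -0.48 (adjusted p = 0.00147), both short of 2-fold.

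*SOL4* (YGR248W) had 1140, 594 and 981 in *com2*Δ cells with SO2, against 829, 1443 and 1959 without, and these arrays overlapped (-0.61, SE 0.34, adjusted p = 0.205, 95% interval -1.35 to 0.14). In BY4741 cells *SOL4* had 116, 105 and 164 with SO2, against 1135, 1944 and 1888 without. This was the strongest fall among the 10 genes, with a log2 fold change of -3.68 (12.8-fold, adjusted p = 5.22e-06). On 2 of the 3 BY4741 arrays with SO2 *SOL4* was at or under 152.5, and with all intensities raised to at least that level its change was -3.37. The responses of the strains differed by 1.06 (SE 0.14, adjusted p = 0.000219) for *SOL3* and by 3.07 (SE 0.48, adjusted p = 0.000588) for *SOL4*.

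*GND1* and *GND2* encode the major and the minor 6-phosphogluconate dehydrogenase, which makes the second NADPH of the pathway and releases CO2. *GND1* (YHR183W) had 21910, 20556 and 21343 in *com2*Δ cells with SO2, against 14432, 14745 and 14605 without. In BY4741 cells *GND1* had 7222, 6432 and 7225 with SO2, against 13726, 14658 and 17714 without. No array of the treated cells overlapped with its controls, and the 2 strains moved in opposite directions. The log2 fold change was 0.54 in *com2*Δ cells (1.46-fold, SE 0.10, adjusted p = 0.00261) and -1.14 in BY4741 cells (2.20-fold, adjusted p = 4.24e-06), and the responses differed by 1.68 (SE 0.14, adjusted p = 1.67e-05). The 3 replicates of a group were tight for *GND1*, apart from the control array of 17714 in the replicate that stood apart, and its change in BY4741 cells was between -1.23 and -1.02 under all alternatives tried.

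*GND2* (YGR256W) had 1758, 721 and 1286 in *com2*Δ cells with SO2, against 311, 237 and 303 without. In BY4741 cells it had 152, 150 and 154 with SO2, against 712, 545 and 701 without. The treated arrays were all above the controls in the mutant and all below them in BY4741, where 2 of 3 were at or under 152.5. The log2 fold change was 2.06 in *com2*Δ cells (SE 0.26, adjusted p = 0.000271) and -2.09 in BY4741 cells (4.27-fold, adjusted p = 3.94e-05), or -2.08 with all intensities raised to at least 152.5. The difference of the responses, 4.16 on the log2 scale (SE 0.36, adjusted p = 1.86e-05), was the largest among the 10 genes. *GND2* was also the only one of the 10 called in *com2*Δ cells, where replicate 2, which stood apart, gave the lowest of the treated values, and without that array its change was 2.42. Without SO2, *GND2* was already lower in *com2*Δ than in BY4741 cells, 2.30-fold (-1.20, adjusted p = 0.0537). This call was lost without any of the 3 *com2*Δ control arrays (adjusted p = 0.105 to 0.226) or without BY4741 control replicate 1 (adjusted p = 0.218).

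**Figure D2:**
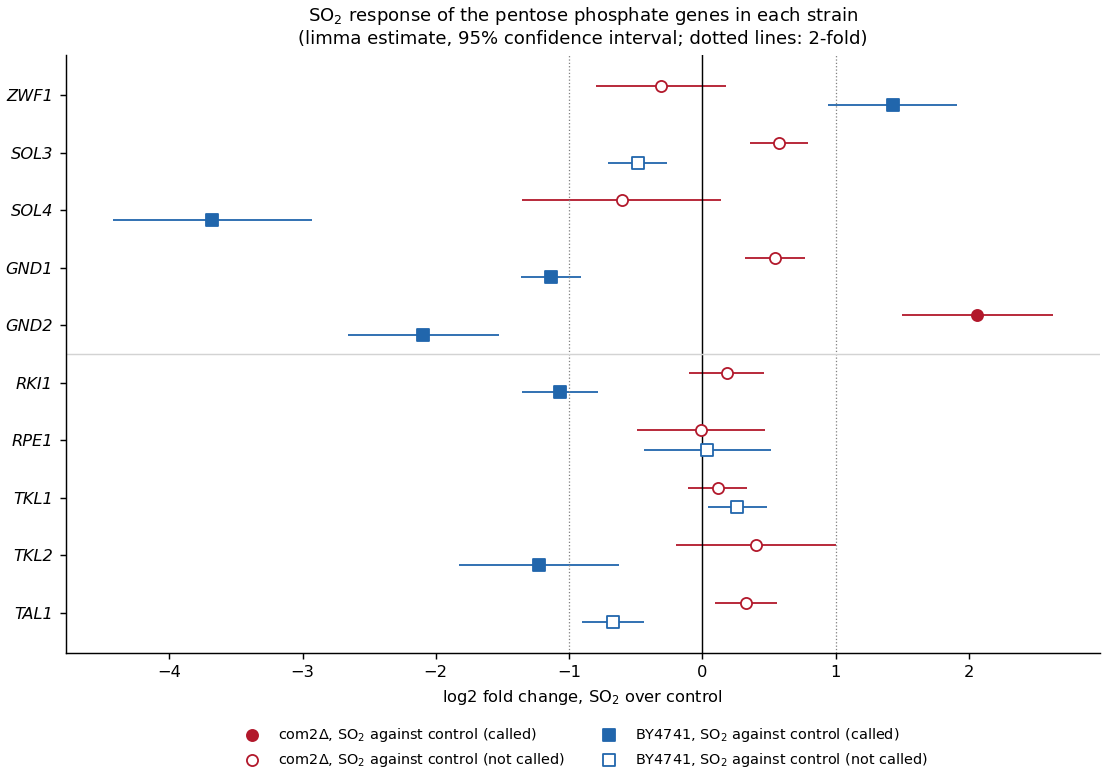
Log2 fold change of each pathway gene, SO2 over control, in *com2*Δ cells (circles) and BY4741 cells (squares), with 95% confidence intervals from limma over 12 arrays. Filled marks are called changed and the dotted lines stand at 2-fold. *ZWF1* lies to the right in BY4741 only (1.43), and *SOL4*, *GND1*, *GND2*, *RKI1* and *TKL2* lie to the left in BY4741, at -3.68 to -1.07.

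Among the genes of the non-oxidative branch, the isomerase gene *RKI1* and the minor transketolase gene *TKL2* fell in BY4741 cells and were not called in *com2*Δ cells. *RKI1* (YOR095C), whose product makes ribose 5-phosphate, had 6231, 6195 and 5826 in *com2*Δ cells with SO2, against 6282, 5118 and 4783 without. In BY4741 cells *RKI1* had 2388, 2539 and 2026 with SO2, against 5450, 4735 and 4383 without. The BY4741 arrays with SO2 were below all other arrays. The log2 fold change was 0.18 in *com2*Δ cells (SE 0.13, adjusted p = 0.314, 95% interval -0.10 to 0.46) and -1.07 in BY4741 cells (adjusted p = 3.29e-05), and the responses differed by 1.25 (SE 0.18, adjusted p = 0.000369). In BY4741 it was just past the limit of 2-fold, and was -0.97 without SO2 replicate 3 and -0.98 without control replicate 1.

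*RPE1* (YJL121C), the epimerase gene that feeds xylulose 5-phosphate to the transketolases, showed no called change anywhere. It had 3690, 5557 and 4023 in *com2*Δ cells with SO2, against 3925, 4279 and 5012 without. In BY4741 cells it had 4690, 7040 and 4347 with SO2, against 4060, 5378 and 6073 without. All groups overlapped. Its log2 fold change was -0.01 in *com2*Δ cells (95% interval -0.49 to 0.47) and 0.04 in BY4741 cells (95% interval -0.44 to 0.51), and changes of 2-fold lie outside both intervals.

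The transketolases move units of 2 carbons between sugar phosphates, and *TKL1* (YPR074C) encodes the major one. It had 16508, 17141 and 16133 in *com2*Δ cells with SO2, against 16305, 15574 and 14158 without, and 18966, 18249 and 18655 in BY4741 cells with SO2, against 14152, 14827 and 17817 without. Its log2 fold change was 0.11 in *com2*Δ cells (SE 0.10, adjusted p = 0.427, 95% interval -0.11 to 0.33) and 0.26 in BY4741 cells (adjusted p = 0.0405). The change in BY4741 was thus small, and the responses did not pass the test of a difference (-0.15, adjusted p = 0.417, 95% interval -0.46 to 0.16). The minor gene *TKL2* (YBR117C) was dim throughout, with 442, 226 and 335 in *com2*Δ cells with SO2, against 265, 188 and 288 without. In BY4741 cells *TKL2* had 159, 271 and 172 with SO2, against 572, 396 and 418 without. It fell 2.34-fold in BY4741 cells (-1.22, SE 0.27, adjusted p = 0.00246) with no overlap of arrays, while the *com2*Δ arrays overlapped (0.40, adjusted p = 0.296, 95% interval -0.20 to 1.01). The responses differed by 1.63 (SE 0.39, adjusted p = 0.00608).

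*TAL1* (YLR354C), the transaldolase gene, moved in the directions of *GND1* and *SOL3* without reaching 2-fold. It had 16354, 15718 and 14913 in *com2*Δ cells with SO2, against 12926, 12093 and 12390 without, and 8086, 6950 and 8651 in BY4741 cells with SO2, against 11995, 11647 and 14048 without. The treated arrays were all above the controls in *com2*Δ cells (0.33, SE 0.11, adjusted p = 0.0373) and all below them in BY4741 cells (-0.67, adjusted p = 0.000231). The responses differed by 0.999 (SE 0.15, adjusted p = 0.000447), just short of the limit of 2-fold, which is 1 on this scale.

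Under SO2 the strains differed in most of the pathway genes, whereas without it *GND2* alone was called between them. With SO2, *SOL3*, *SOL4*, *GND1*, *GND2* and *RKI1* were 2.10- to 7.75-fold higher in *com2*Δ than in BY4741 cells and *ZWF1* was 3.39-fold lower. These 6 of 10 genes were called where 17.7% of all features were (7.62% higher and 10% lower), and the median log2 difference of the 10 was 1.03, against -0.01 over all features. The arrays of the strains did not overlap for 8 of the genes, 6 higher and 2 lower in *com2*Δ, against 66.8% of all features. Both genes with lower arrays in *com2*Δ were named above, *ZWF1* and *TKL1*, and for *TKL1* the difference was small (-0.17, adjusted p = 0.17). *TAL1* was 1.99-fold higher in *com2*Δ (adjusted p = 1.61e-05), just short of the limit, and *TKL2* 1.65-fold higher (adjusted p = 0.0381) with overlapping arrays.

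Without SO2, only *GND2* of the 10 was called between the strains, where 0.706% of all features were called (0.353% in each direction), and the median log2 difference was -0.05, against -0.02 over all features. The arrays of *GND2* and *TKL2* lay lower in *com2*Δ with no overlap, and those of the other 8 overlapped, where 17.5% of all features did not. The *TKL2* difference was -0.91 (adjusted p = 0.17). For *ZWF1*, *SOL3*, *GND1*, *TKL1* and *TAL1* the difference was between -0.07 and 0.01. The SO2 responses themselves differed between the strains, by the call on the interaction, for 7 of the 10 genes, *ZWF1* downward and 6 upward, where 17.5% of all features were called (8.17% upward and 9.30% downward).

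**Figure D3:**
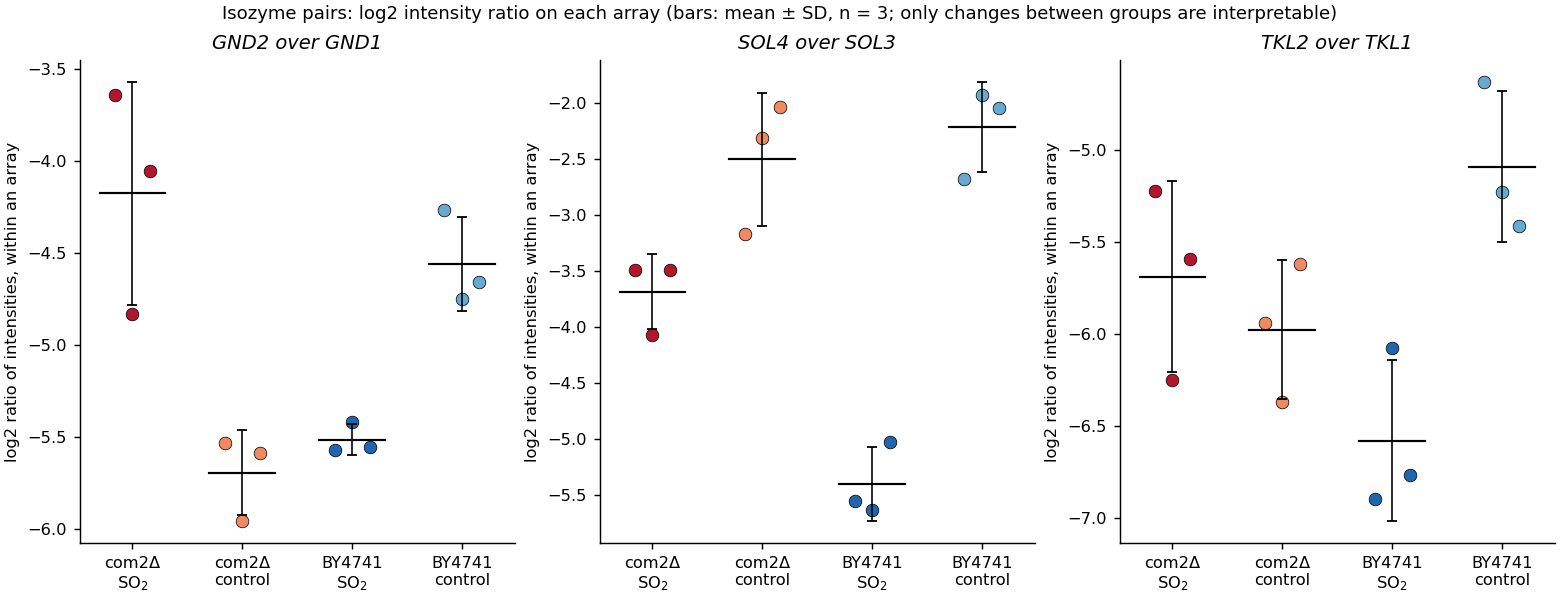
Log2 ratio of the intensities of paired isozyme genes within each array, for *GND2* over *GND1*, *SOL4* over *SOL3* and *TKL2* over *TKL1*. Points are the 12 arrays in 4 groups and bars show mean and SD (n = 3). Only differences between groups can be read, and the *GND2* ratio with SO2 lies above its control in *com2*Δ cells and below it in BY4741 cells.

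A pair of isozyme genes exists for 3 steps of the pathway, and their ratio within an array was compared between SO2 and control. With SO2, *GND2* over *GND1* changed by 1.52 on the log2 scale in *com2*Δ cells and by -0.96 in BY4741 cells, so *GND2* moved further than *GND1* in both strains. *SOL4* over *SOL3* changed by -1.18 in *com2*Δ cells and by -3.19 in BY4741 cells. *TKL2* over *TKL1* changed by 0.29 in *com2*Δ cells and by -1.49 in BY4741 cells. In 5 of these 6 comparisons the treated and control arrays did not overlap, and the exact two-sided permutation test gave p = 0.1, the smallest that 3 against 3 arrays allow (0.12 after Benjamini-Hochberg adjustment over the 6). The exception was *TKL2* over *TKL1* in *com2*Δ cells (exact p = 0.4). In BY4741 cells with SO2, *SOL4* and *GND2* were each at or under 152.5 on 2 of 3 arrays, so background limits the size of these ratio changes. Whether the probe sets of such paralogs detect each other's transcripts was not tested.

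The features most like 3 of the genes, by Pearson's r of log2 intensity over the 12 arrays, were listed as a description. These arrays fall into 4 groups, so r carries the differences between group means, which these features share. For *ZWF1* they were YJL077W-B (0.985), *ATS1* (0.962), *FIG2* (0.961), *BPL1* (0.960) and *TRP5* (0.959), each with its highest mean in BY4741 cells with SO2. *TRP5*, the tryptophan synthase gene, averaged 9433 in *com2*Δ cells with SO2, 10536 in *com2*Δ cells without, 21749 in BY4741 cells with SO2 and 11437 in BY4741 cells without. No other pathway gene came near *ZWF1* by this measure: r was -0.898 with *GND1* and -0.885 with *TAL1*, and its highest value was 0.752, with *TKL1*. For *GND1* the most alike features were *FMP48* (0.991), *SER3* (0.987), *TAL1* (0.986), *IMD2* (0.984) and *ALD6* (0.983), so another pathway gene and another source of NADPH were among them. For *GND2* they were *SPS19* (0.981), *SDD1* (0.975), *ADH6* (0.961), YML003W (0.960) and *GCY1* (0.957). *ADH6* and *GCY1* encode NADPH-dependent reductases.

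Genes that supply NADPH or NADP by other routes changed in both directions. This list and the lists below were chosen with earlier results of these data known, so their counts are a description. In BY4741 cells 4 of 10 rose with SO2 and 2 fell, where 10.5% of all features rose and 8.36% fell, with a median log2 fold change of 0.29 beside the 0.00 of all features. In *com2*Δ cells 3 of 10 rose and none was called lower, where 3.14% of all features rose and 2.74% fell, with a median of 0.49 beside 0.01. *ALD6*, the cytosolic acetaldehyde dehydrogenase that reduces NADP+, had the pattern of *GND1* at a larger size. It had 19018, 15957 and 18100 in *com2*Δ cells with SO2, against 9423, 7980 and 7055 without, and 2147, 1759 and 1962 in BY4741 cells with SO2, against 11882, 9747 and 13095 without. It rose in *com2*Δ cells (1.12, SE 0.14, adjusted p = 0.000276) and fell in BY4741 cells (-2.56, adjusted p = 1.76e-07). The mitochondrial *ALD4* fell in BY4741 cells too (-1.25), and was 0.68 in *com2*Δ cells, not called.

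The genes of this group that rose in BY4741 cells encode mitochondrial enzymes. *POS5*, the mitochondrial NADH kinase, had 2215, 1657 and 2202 in *com2*Δ cells with SO2, against 1168, 1547 and 1625 without, and 6961, 6357 and 8083 in BY4741 cells with SO2, against 1277, 1673 and 1809 without. It rose 2.18 on the log2 scale in BY4741 (SE 0.18, adjusted p = 2.08e-06) and was not called in *com2*Δ (0.49, adjusted p = 0.0592). The others were *MAE1*, the malic enzyme (1.74, SE 0.28), *ALD5*, an aldehyde dehydrogenase (1.69, SE 0.18), and *IDP1*, the mitochondrial isocitrate dehydrogenase (1.14, SE 0.12). The control array that stood apart held the highest of the BY4741 control values for each of these 4 genes, for *MAE1* 6129 against 2574 and 2832 on the others, and all 4 calls held without that array.

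In *com2*Δ cells the kinase gene *YEF1* and the peroxisomal isocitrate dehydrogenase gene *IDP3* rose beside *ALD6*. *YEF1* had 2898, 1878 and 3022 in *com2*Δ cells with SO2, against 320, 387 and 389 without, and 409, 420 and 417 in BY4741 cells with SO2, against 451, 572 and 369 without. It rose only in the mutant, by 2.81 (SE 0.19, adjusted p = 6.76e-06), and the responses of the strains differed by 2.94 (SE 0.27, adjusted p = 2.28e-05). *IDP3* rose by 1.36 (SE 0.21, adjusted p = 0.000922) in *com2*Δ cells and was 0.06 in BY4741 cells. *UTR1*, another NAD kinase gene, was not called in either strain (0.48 in *com2*Δ and 0.12 in BY4741). *IDP2*, the cytosolic isocitrate dehydrogenase gene, was at 326 to 344 in *com2*Δ cells with SO2, against 571 to 727 without. In BY4741 cells *IDP2* was at 1003 to 1180 with SO2, against 664 to 906 without. Neither change of *IDP2* reached 2-fold, but under SO2 it was lower in *com2*Δ than in BY4741 cells (-1.67, adjusted p = 2.18e-06).

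Of 8 genes that supply glucose 6-phosphate or regulate the pathway, 4 fell in BY4741 cells with SO2 and none was called higher, where 8.36% of all features fell (median -0.72, against 0.00 over all features). In *com2*Δ cells 2 of the 8 fell, where 2.74% of all features did (median -0.19, against 0.01). The hexokinase gene *HXK1* fell in both strains (-2.03 in *com2*Δ, adjusted p = 2.49e-05, and -4.29 in BY4741, SE 0.17). The glucokinase gene *GLK1* was at -0.75 in *com2*Δ (adjusted p = 0.0259, not called) and fell in BY4741 (-2.47, SE 0.22). *HXK2*, the major hexokinase gene in glucose, was at -0.04 in *com2*Δ and fell in BY4741 (-1.42, SE 0.10), and its responses differed between the strains (1.38, adjusted p = 4.4e-05). *PGM2*, the major phosphoglucomutase, also fell in both strains (-1.64 in *com2*Δ and -2.09 in BY4741, SE 0.27). *PGI1*, which competes with *ZWF1* for glucose 6-phosphate, was 0.05 in *com2*Δ and 0.08 in BY4741 cells (SE 0.07), and *PGM1*, the minor phosphoglucomutase, was 0.02 in *com2*Δ and 0.45 in BY4741 cells (SE 0.14), neither called. *STB5*, an activator of pathway genes, had 524, 596 and 623 in *com2*Δ cells with SO2, against 406, 485 and 492 without, and 744, 676 and 788 in BY4741 cells with SO2, against 352, 390 and 374 without. The change of *STB5* in BY4741, 0.98 (SE 0.11, adjusted p = 1.75e-05), was just short of 2-fold and passed it after quantile normalization (1.03), and *YAP1*, the oxidative stress regulator, was -0.33 in *com2*Δ and -0.01 in BY4741 cells.

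Among 18 genes of enzymes that use NADPH, 7 rose and 1 fell in BY4741 cells with SO2, where 10.5% of all features rose and 8.36% fell (median 0.70, against 0.00 over all features). The paper already names *MET5*, *MET10*, *MET13*, *LYS2* and *ILV5* among the genes that SO2 activated in BY4741 but not in *com2*Δ cells. The share of the list that rose was thus partly known when it was chosen. None of the 18 was called in *com2*Δ cells, where 5.88% of all features were (median -0.01, against 0.01). Without the limit on fold change, at an adjusted p under 0.05, 4 of the 18 were lower in *com2*Δ cells and none higher. Over all features 14.9% were lower and 14.0% higher by that rule. *MET5* and *MET10*, the subunits of sulfite reductase, were among those that rose. *MET5* had 1054, 1048 and 1104 in *com2*Δ cells with SO2, against 1631, 1591 and 1370 without, and 19594, 19296 and 19909 in BY4741 cells with SO2, against 1470, 1571 and 2077 without. *MET5* and *MET10* both rose by 3.54 on the log2 scale in BY4741 (SE 0.12 and 0.19), and *MET13*, the methylenetetrahydrofolate reductase, by 4.01 (SE 0.34). *FAS2*, *DFR1*, *LYS2* and *ILV5*, of fatty acid, folate, lysine and branched-chain amino acid synthesis, rose by 1.76, 1.36, 1.16 and 1.08 in BY4741. *HMG1*, of sterol synthesis, fell by 1.08 in BY4741 and was at -0.86 in *com2*Δ cells (adjusted p = 0.00147), short of 2-fold. The responses of *HMG1* did not pass the test of a difference (0.22, adjusted p = 0.413). *GDH1*, the glutamate dehydrogenase, *ARO1*, *FAS1* and *TRR1*, the thioredoxin reductase, were at 0.93, 0.75, 0.47 and 0.37 in BY4741, not called. Without the BY4741 control array that stood apart *GDH1* was called, at 1.18.

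**Figure D4:**
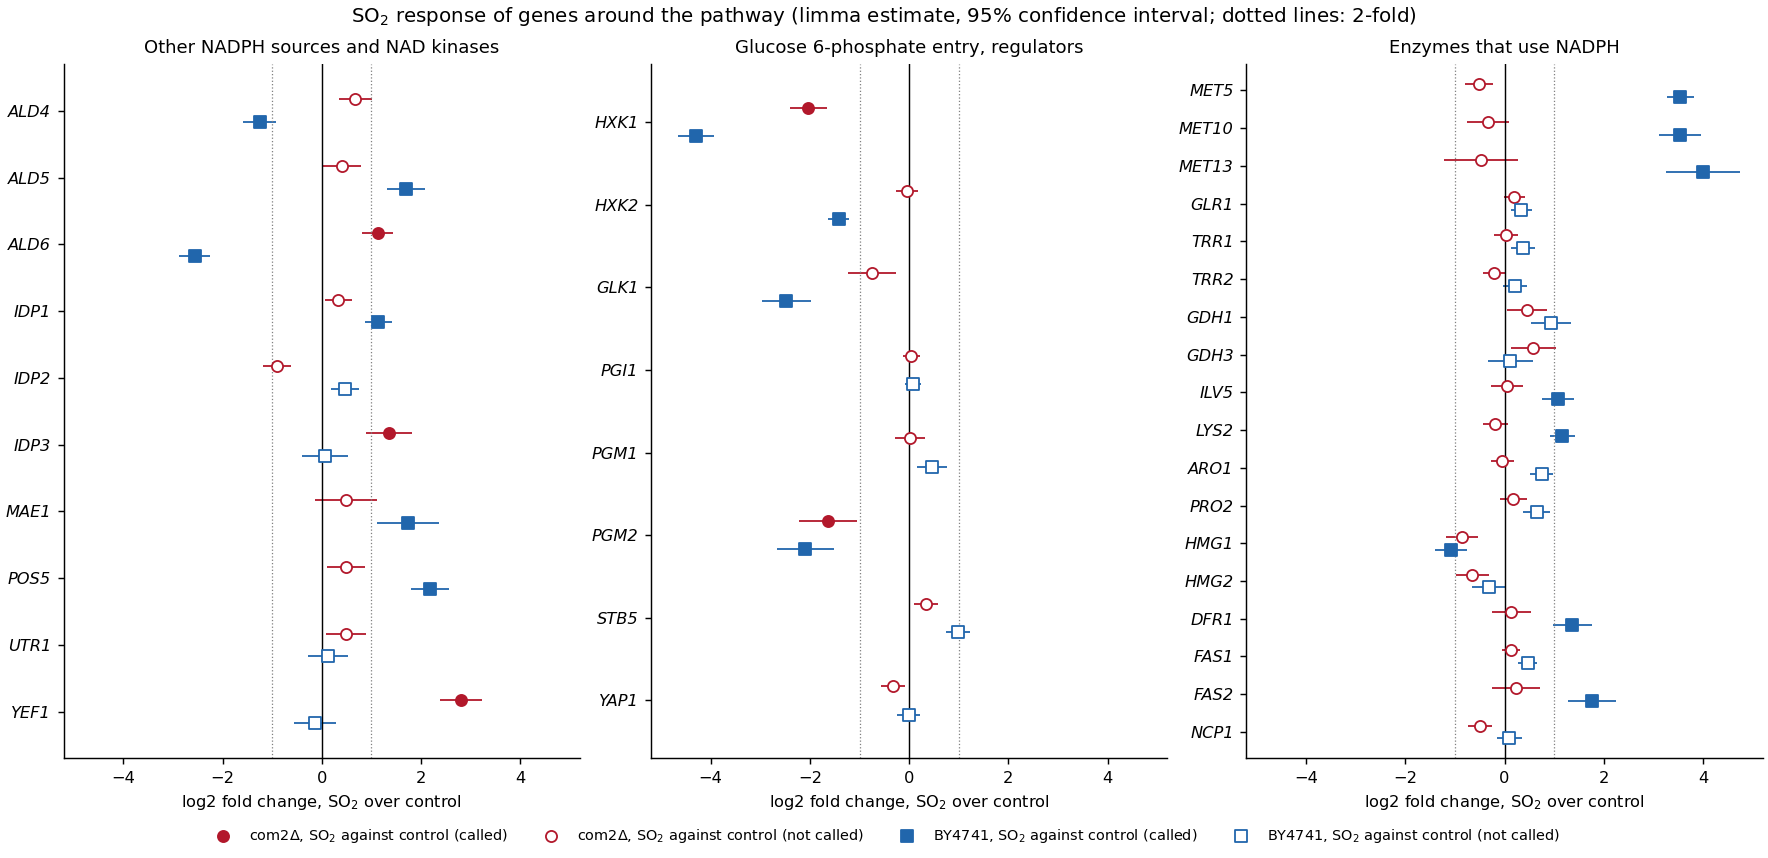
Log2 fold change, SO2 over control, with 95% confidence intervals from limma over 12 arrays, for genes that supply NADPH or NADP, genes of glucose 6-phosphate entry and regulators, and genes of enzymes that use NADPH. Circles are *com2*Δ and squares BY4741 cells, filled where called, and dotted lines stand at 2-fold. *MET5*, *MET10* and *MET13* lie at 3.54 to 4.01 in BY4741 and are not called in *com2*Δ, and *YEF1* lies at 2.81 in *com2*Δ only.

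Of 11 paralogs and neighbours of the pathway, *NQM1*, the paralog of *TAL1*, was the only one called with SO2 in BY4741 cells, where 18.8% of all features were (median 0.08, against 0.00 over all features). None was called in *com2*Δ cells, where 5.88% of all features were (median -0.01, against 0.01). *NQM1* had 2949, 1224 and 2354 in *com2*Δ cells with SO2, against 4440, 3075 and 3897 without, and 546, 473 and 587 in BY4741 cells with SO2, against 5003, 3892 and 4482 without. It fell by 3.06 in BY4741 (SE 0.27, adjusted p = 3.6e-06), and in *com2*Δ its change was -0.88 (adjusted p = 0.029), which passed 2-fold without *com2*Δ SO2 replicate 1 (-1.15) or *com2*Δ control replicate 2 (-1.03). The brightest genes of phosphoribosyl pyrophosphate synthesis, which draws on ribose 5-phosphate, were not called. *PRS1*, *PRS3* and *PRS5* were at -0.20, -0.09 and -0.01 in *com2*Δ cells and at -0.33, -0.22 and 0.47 in BY4741 cells. *SHB17*, the sedoheptulose bisphosphatase gene, was not called either (0.24 in *com2*Δ and 0.57 in BY4741).

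Between the strains under SO2, 3 of the 10 genes of other NADPH sources were higher in *com2*Δ (*ALD4*, *ALD6* and *YEF1*) and 3 lower (*ALD5*, *IDP2* and *POS5*), and 4 of the 18 genes of NADPH use were lower (*MET5*, *MET10*, *MET13* and *LYS2*) with none higher, where 7.62% of all features were higher and 10% lower. Without SO2, none of these 10 supply genes was called, and *MET13* alone of the 18 was, higher in *com2*Δ, where 0.706% of all features were called. The paper instead names *MET13* among genes less expressed in *com2*Δ than in BY4741 control cells, the opposite direction. That call of *MET13* (1.48, adjusted p = 0.0719) was lost with only the arrays compared in the fit (adjusted p = 0.236) and without any of 8 single arrays. The calls of *ILV5* in BY4741 and of *ALD5* between the strains under SO2 rested on the limit of 2-fold: *ILV5* was 0.97 after quantile normalization and 0.94 without BY4741 control replicate 1, and *ALD5* -0.97 after quantile normalization and -0.95 without *com2*Δ SO2 replicate 2.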

How the data were processed

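RNA of *com2*Δ and BY4741 cells was measured on 12 arrays, 3 for each group. Values are intensities as deposited, linear and 1 for each probe set. In the paper's methods the authors scaled the arrays to an invariant set in dChip and modelled expression from perfect match probes only, while the notes of the submitters name MAS5 without a version. Fewer arrays and another labelling kit appear in these methods than in the labels. The number of arrays limits precision, and p-values measure the spread between replicates as labelled.

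Of 5716 probe sets, 5498 named 1 gene and 218 none, and 12 symbols were updated. A gene with several probe sets was represented by the brightest, and the deposited intensities were taken to log2 without rescaling. limma 3.58.1 (R 4.3.3) fitted 1 mean for each group over all 12 arrays, with 8 residual degrees of freedom and 3.24 prior ones for the moderated variance. The limits for a call are those of the methods, except that Present calls and the lower bound of the fold were not applied. Isozyme ratios were tested by exact two-sided permutation (scipy 1.17.1). Python 3.11.15, numpy 2.4.6, pandas 2.3.3 and matplotlib 3.10.9 made the tables and figures. The fit was tested on simulated data.

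Genes named are the 10 of the pathway, the called members of each list with up to 4 of its brightest other members, the 5 features most like *ZWF1*, *GND1* and *GND2*, *COM2*, and the deleted genes. Members and lists were chosen with earlier results of these data known. Each result was recomputed with a block for replicate number, without each array in turn, after quantile normalization or median centring, with 16 added to the intensities, without the 25% dimmest features, from the compared arrays alone, with trended robust variances, with array weights, from all probe sets and at other thresholds. A floor at the level of the deleted genes was added after seeing the data. Promoter motifs were not searched, since no sequence was used here.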

Additional observations from a re-analysis of the deposited data

Results flagged for a closer look

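The results below were picked out because the SO2 response differed between the strains, by the call on the interaction of strain and treatment in limma. Values are the log2 response of *com2*Δ cells minus that of BY4741 cells. Outlying arrays were not sought in this way, since groups of 3 are too small.

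Among the 10 pathway genes, 7 differed, where 17.5% of all features did. The difference was -1.74 for *ZWF1*, 1.06 for *SOL3*, 3.07 for *SOL4*, 1.68 for *GND1*, 4.16 for *GND2*, 1.25 for *RKI1* and 1.63 for *TKL2*. *GND2* was called in opposite directions in the strains, and *ZWF1* had the only negative difference among the 7.

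Of the 47 listed genes around the pathway, 19 differed, where 17.5% of all features did. *NQM1*, the paralog of *TAL1*, differed by 2.17. Among other NADPH sources the difference was 1.93 for *ALD4*, -1.28 for *ALD5*, 3.68 for *ALD6*, -1.37 for *IDP2*, 1.30 for *IDP3*, -1.25 for *MAE1*, -1.69 for *POS5* and 2.94 for *YEF1*. For the kinases of glucose it was 2.26 for *HXK1*, 1.38 for *HXK2* and 1.72 for *GLK1*. The 7 that use NADPH had negative differences, -4.05 for *MET5*, -3.87 for *MET10*, -4.49 for *MET13*, -1.03 for *ILV5*, -1.35 for *LYS2*, -1.23 for *DFR1* and -1.53 for *FAS2*. Of these, the call of *ILV5* was lost with quantile normalization (-0.99), with median centring (-0.96), and without *com2*Δ SO2 replicate 1 (-0.99), BY4741 control replicate 1 (-0.90) or BY4741 control replicate 2 (-0.97). With array weights *MAE1* was at -1.92.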

How the results depend on the processing

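Members called were 6 with SO2 in BY4741, 1 with SO2 in *com2*Δ, 6 between the strains under SO2, 1 between them without SO2 and 7 for the difference of responses. Without the 25% dimmest features, which drop *SOL4*, *GND2* and *TKL2*, the counts among the other 7 genes were 3, 0, 4, 0 and 4. Calls among the 4250 features kept were then 721, 144, 675, 15 and 649. With adjusted p under 0.05 and no fold limit, 4 were called with SO2 in *com2*Δ, all higher. Over all features 14.0% were higher and 14.9% lower by that rule. It called 0 between the strains without SO2, where its share over all features is not given here. Array weights gave 2 for the strains without SO2 (*GND2* and *TKL2*, -1.13), where 94 of the 5667 features were called. Leaving out 1 array gave 5 to 6, 1 to 1, 5 to 7, 0 to 1 and 6 to 8 in that order. Calls over all 5667 features were then 1023 to 1180, 295 to 399, 964 to 1097, 27 to 74 and 906 to 1093.

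Values of the 10 genes that changed sign were not called. With SO2 in BY4741, *RPE1* was -0.058 with median centring, -0.125 with array weights and -0.176 to 0.172 without 1 array. With SO2 in *com2*Δ, *RPE1* was 0.026 with quantile normalization and -0.186 to 0.11 without 1 array. Its difference of responses was 0.0257 with median centring, 0.0393 with array weights and -0.224 to 0.166 without 1 array. For the strains without SO2, array weights gave 0.243 for *ZWF1* (limma adjusted p = 0.0209), short of 2-fold. They gave -0.0385 for *SOL3*, 0.015 for *GND1*, 0.0739 for *TKL1* and 0.0435 for *TAL1* (adjusted p = 0.128 to 0.768). There *TAL1* was 0.0133 with quantile normalization and 0.0064 with median centring. Without 1 array these strain differences were -0.158 to 0.209 for *ZWF1*, -0.0342 to 0.0476 for *SOL3*, -0.557 to 0.0635 for *SOL4*, -0.143 to 0.041 for *GND1*, -0.0854 to 0.0807 for *TKL1* and -0.0585 to 0.0767 for *TAL1*.

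Near the 2-fold limit, *SOL3* lost its calls without *com2*Δ SO2 replicate 1, between the strains under SO2 (0.97) and for the difference of responses (0.96). *TAL1* gained the call between the strains under SO2 with quantile normalization (1.01), median centring (1.08) and without *com2*Δ SO2 replicate 3 or BY4741 SO2 replicate 1 or 3 (1.01 to 1.06). For the difference of responses it gained the call with median centring (1.07) and without any of these 3 arrays, *com2*Δ control replicate 1 or BY4741 control replicate 1 or 2 (1.02 to 1.07). With array weights *TKL2* was called between the strains under SO2 (1.003).

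With the replicate block, members called were 6, 1, 6, 1 and 7, and calls over all features were 1067, 334, 1002, 39 and 987, against 1068, 333, 1001, 40 and 990 without it. Of 18 same-numbered pairs of arrays, 7 had a correlation of deviations over 0.1 (-0.31 to 0.47). Differently numbered pairs were not compared with these, so the values cannot decide whether the numbers pair the samples. Without the 25% dimmest features, calls were 144 with SO2 in *com2*Δ, 15 for the strains without SO2 and 649 for the difference of responses. These calls are out of 4250 features and not 5667, so the counts cannot be set directly beside those of the full set. For the strains without SO2, calls over all 5667 features were 94 with array weights and 26 with the floor at the deleted genes. They were 27 and 74 without BY4741 control replicate 1 or replicate 3. Only the arrays compared gave no value for the difference of responses. Signal near background limits *SOL4* and *GND2* in BY4741 with SO2, where a lower level could not be told apart. The cause of these shifts was not tested.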
